A study of Mus musculus with 12 samples.

Results

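The phase II transferases described here are 3 families of conjugating enzymes: the UDP-glucuronosyltransferases (UGT), the glutathione S-transferases (GST) and the cytosolic sulfotransferases (SULT). Their members were the coding probes whose RefSeq accession maps to a mouse gene named Ugt1, Ugt2 or Ugt3, Gst with a class letter and number, or Sult with a number, and which were called well above background on at least 3 of the 12 arrays. Of 62 such probes for 59 genes on the array, 56 probes for 53 genes passed, among 31168 kept probes of which 19894 were coding. All 20 UGT probes (20 genes) and all 25 GST probes (22 genes) passed. Of 17 SULT probes (17 genes), 11 passed. Sult2a1, Sult2a6, Sult2b1 and Sult3a1 were well above background on 0 arrays, and Sult2a4 and Sult6b2 on 1 array each. Just inside the filter, Sult1c1 and Sult2a2 were well above background on 4 arrays. In all, 42 of the 56 kept probes were well above background on all 12 arrays.

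Liver RNA was taken from 6-week-old male wild-type C57BL/6 mice at 1.5, 12 and 24 h after a partial hepatectomy, in which surgeons take out 2/3 of the liver, and at 0 h, with 3 mice per time point and 1 array per mouse. Every animal, the 0 h ones included, carries the hepatectomy label, there is no sham-operated group, and the labels do not give the time of day. The effects of lost tissue, of surgery with anaesthesia and of the hour of the day cannot be told apart. Signals are given as the log2 of the spot intensity relative to the 75th percentile of the same array, so that 0 is that percentile and each unit is a factor of 2. Levels of different probes cannot be compared on this scale. The tissue was bulk liver, in which fewer cells of a type and less RNA per cell cannot be told apart.

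Conjugation makes drugs, hormones, bile pigments and bile acids more soluble for excretion in bile and urine. UGTs sit in the endoplasmic reticulum and transfer a sugar from a UDP-sugar, GSTs add glutathione to reactive electrophiles, and SULTs transfer sulfate from the donor PAPS. Hepatocytes carry most of this capacity in the liver, and their nuclear receptors and transcription factors set the level of many of the genes.

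Some arrays stood apart. The 24 h replicate 2 array had a 75th percentile signal of 6018, against 428 to 584 on the other 11 arrays, and 540 dropped outlier spots, against 19 to 40. Across probes it correlated at r = 0.912 and 0.906 with the other 24 h arrays, which correlated with each other at 0.986. The array files record 4 scans: scan 1 held all 0 h arrays and 1.5 h replicate 1, scan 2 held 1.5 h replicates 2 and 3 and 12 h replicates 1 and 2, scan 3 held 12 h replicate 3 and 24 h replicates 1 and 3, and scan 4 held 24 h replicate 2 alone. The 1.5 h replicate 1 array correlated at 0.972 and 0.9725 with 1.5 h replicates 2 and 3 and at up to 0.987 with a 0 h array, also of scan 1. All 0 h arrays shared scan 1, so within a scan 0 h can be compared only with 1.5 h replicate 1, while scan 2 holds 1.5 and 12 h arrays and scan 3 holds 12 and 24 h arrays. Comparisons were therefore also fitted with the scan as a block. In that fit every comparison with 0 h is tied to 0 h through 1.5 h replicate 1 alone. The comparison of 24 h with 12 h rests on scan 3, where 12 h replicate 3 is the only 12 h array. The 24 h replicate 2 array, alone in its scan, adds nothing to the blocked comparisons.

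The tissue label was checked against marker genes, whose linear signals relative to the 75th percentile were summed. Levels of different probes are not comparable, so the brightest marker of a list weighs most in its sum. All 6 hepatocyte markers were well above background on every array, with summed levels of 1209 to 1994 at 1.5 h, 1429 to 2676 at 12 h and 558 to 1147 at 24 h, against 1099 to 1170 at 0 h. The 5 measured neutrophil markers summed to 6.83 to 9.58 at 1.5 h, 29.2 to 36.3 at 12 h and 24.3 to 35.3 at 24 h, against 1.04 to 1.60 at 0 h, where Ngp was above background on 0 arrays. The 5 adipocyte markers summed to 0.596 to 0.870 at 1.5 h, 2.67 to 4.52 at 12 h and 4.15 to 4.85 at 24 h, against 0.404 to 0.650 at 0 h, where Cfd, Lep and Plin1 were above background on 0 arrays. The 5 macrophage markers summed to 17.5 to 33.7 at 12 h and 34.3 to 47.8 at 24 h, against 13.9 to 25.5 at 0 h. At 12 h, however, 1 of these 5 markers was called higher and 2 lower, with a median log2 fold change of -1.07. The 5 stellate cell markers summed to 3.79 to 4.33 at 12 h and 5.10 to 9.22 at 24 h, against 7.06 to 8.36 at 0 h, where Des and Acta2 were above background on 0 arrays. The lymphocyte markers, of which Cd79a was above background on 0 arrays, summed to 47.8 to 66.4 at 12 h and 7.81 to 45.4 at 24 h, against 23.5 to 33.2 at 0 h. At 12 h these sums did not overlap 0 h, yet of the 4 lymphocyte markers tested 0 were called higher and 1 lower. Ms4a1 was also above background on 0 arrays at 12 h. Bile duct markers summed to 11.3 to 13.7 at 12 h and 16.9 to 28.2 at 24 h, against 13.4 to 15.4 at 0 h, and endothelial markers to 16.6 to 22.2 and 17.1 to 20.9, against 14.6 to 16.8. Erythroid markers summed to 24.0 to 31.7 at 12 h and 23.3 to 52.4 at 24 h, against 38.1 to 41.4 at 0 h, and pancreas markers to 2.69 to 4.58 and 2.28 to 5.15, against 4.59 to 5.20. Intestine markers, of which Sis was above background on 0 arrays, summed to 23.3 to 35.4 at 12 h and 31.9 to 35.9 at 24 h, against 20.5 to 25.3 at 0 h. At 24 h the bile duct, endothelial, intestine and macrophage sums lay above 0 h without overlap, and at 12 h the erythroid, pancreas and stellate sums lay below it. These levels differed between the time points compared below, and their part in the results was not tested.

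At 12 and at 24 h more transferase probes were called lower than higher against 0 h. The lower calls at both times included 7 of 8 Ugt1a probes, Ugt2b35, both Gsta3 probes, both Gstm4 probes, Sult1c2 and Sult2a8. Sult1e1, the estrogen sulfotransferase, was called higher at both times. Of these calls against 0 h, those of Sult1e1 and Ugt2b35 at 12 h also passed with the scan as a block. That fit ties the later times to 0 h through 1.5 h replicate 1 alone. Differences were tested with limma's moderated test over all 12 arrays, with Benjamini-Hochberg adjustment across the 31168 kept probes and a threshold of 0.05. At 12 h against 0 h, 4 of 56 probes were called higher and 18 lower, where 7.06% of all kept probes were called higher and 8.26% lower (7.38% and 10.2% of coding probes). The members called were 7.14% higher and 32.1% lower. These shares count the 7 Ugt1a probes and both probes of Gsta3 and of Gstm4 singly, and such probes are not independent readings. Over the members the median log2 fold change was -0.55, set against 0.42 for all probes and 0.24 for coding probes. By family the medians were -1.33 for UGT, -0.52 for GST and 0.36 for SULT, and 3 of 11 SULT probes were called higher and 3 lower.

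At 24 h against 0 h, 1 probe was called higher and 26 lower, where 2.84% of all kept probes were called higher and 2.62% lower (3.35% and 2.4% of coding probes). That is 1.79% and 46.4% of the members, for 1 gene and 23 genes. The same Ugt1a, Gsta3 and Gstm4 probes are among the lower calls and are not independent readings. The lower calls include Sult1c1, which was well above background on 0 arrays at 0 h and at 24 h. The member median was -1.28, against -0.15 for all probes and -0.06 for coding probes. The family medians were -1.45 for UGT, -1.22 for GST and -0.44 for SULT, of which 1 probe was called higher and 5 lower. The 12 h and 24 h comparisons share their 0 h arrays. Arrays of 12 h did not overlap those of 0 h for 42 of 56 members and for 19168 of all 31168 kept probes. For 24 h against 0 h these counts were 36 and 8407, and for 24 h against 12 h 16 and 12963. Lack of overlap, as given for single genes below, was thus common among all probes at 12 h.

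Between 24 h and 12 h, 1 probe (Ugt2b35) was called higher and 8 lower, where 6.26% of all kept probes were called higher and 6.78% lower (7.94% and 5.5% of coding probes). The lower calls over the 12 arrays were 5 GST and 3 SULT probes, and no UGT probe was among them. Without 24 h replicate 2, however, 3 UGT probes were called lower (Ugt1a2, Ugt2b1 and Ugt2b38). With the scan as a block Ugt2b1 and Ugt2b38 were called lower. At 1.5 h against 0 h, 0 of 56 probes were called, where 0.0225% of all kept probes were called higher and 0% lower. Of the 56 probes, 3 had an unadjusted p under 0.05, and the smallest adjusted p was 0.723.

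Without the 24 h replicate 2 array the calls became 8 higher and 28 lower at 12 h (32.6% and 16.6% of all kept probes), 1 and 33 at 24 h (10.3% and 6.67%), and 1 and 14 for 24 h against 12 h (8.37% and 7.4%). All members called over the 12 arrays were called again without it. With the scan as a fixed block, 1 member was called higher (Sult1e1) and 1 lower (Ugt2b35) at 12 h against 0 h, where 2.13% and 2.02% of all kept probes were called, and 0 members at 24 h against 0 h, where 0.173% and 0.093% were called. For 24 h against 12 h the block gave 1 higher and 11 lower calls, where 5.26% and 3.61% of all kept probes were called. Every called member kept its sign under the block, 22 of 22 at 12 h, 27 of 27 at 24 h and 9 of 9 between them. Of all 56 members, 45 kept it at 12 h, 49 at 24 h and 49 between them. At 12 h Gsta1, Gsta2 and Gstm3, which were not called, turned from -1.02, -1.57 and -2.29 to 0.93, 0.10 and 0.16. The share of all called probes that kept their sign is not given here. The median standard error of the members' log2 fold changes with the block was 0.45 at 12 h and 0.58 at 24 h, against 0.41 without it.

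**Figure D1:**
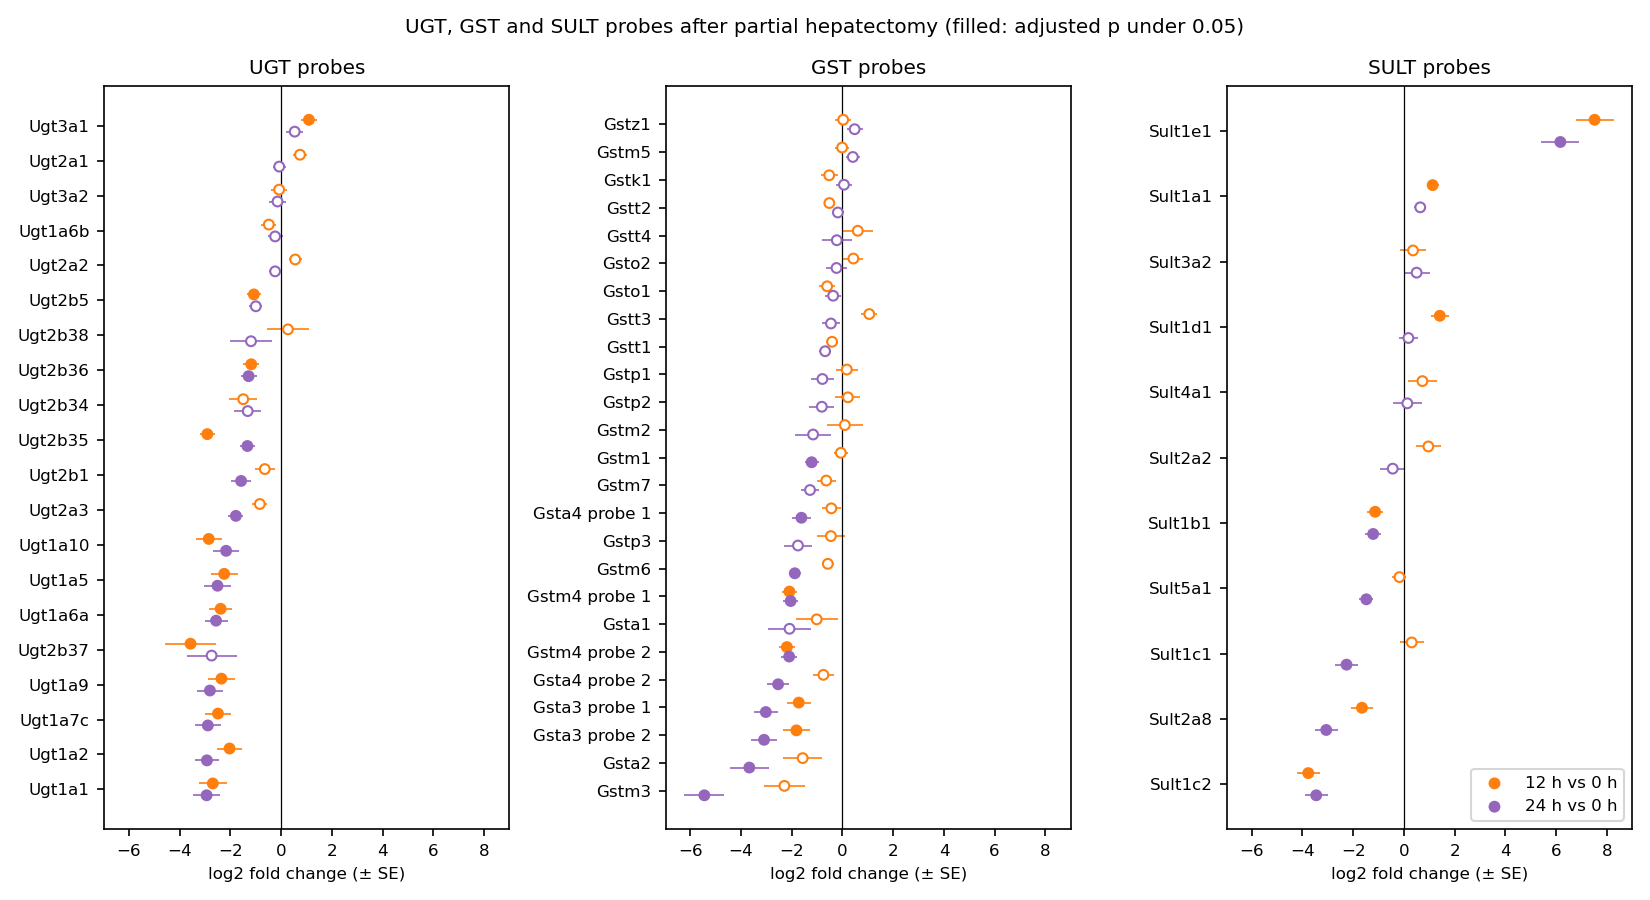
Log2 fold change of each kept UGT, GST and SULT probe (horizontal axis, bars show the standard error from limma over 12 arrays) at 12 h and 24 h against 0 h, with probes ordered by the 24 h value within each family. Filled points passed an adjusted p of 0.05: 4 lie right and 18 left of 0 at 12 h, 1 right and 26 left at 24 h, and Sult1e1 lies farthest right. Points are fitted values, also for Ugt1a10 at 12 h and for Sult1c1 and Sult2a2, where a group had 0 arrays well above background.

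**Figure D2:**
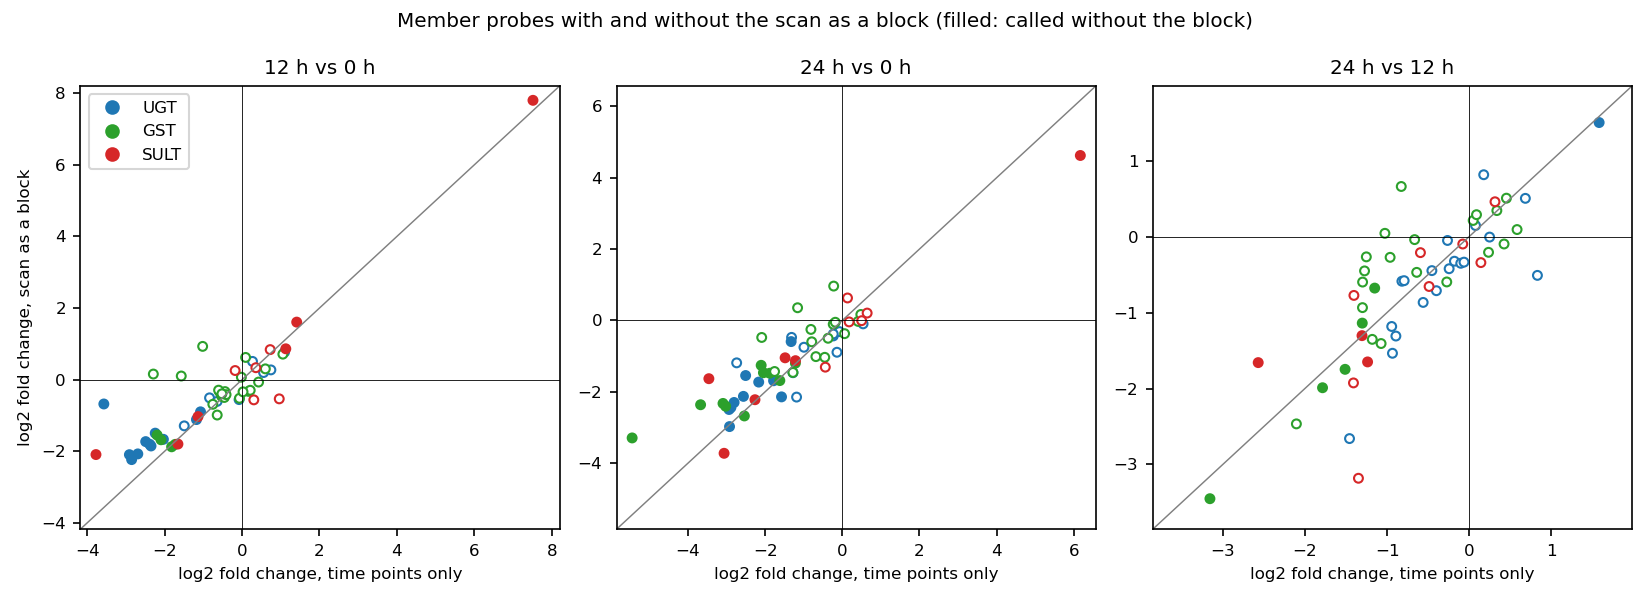
Log2 fold change of each kept member probe from the fit of time points alone (horizontal axis) and from the fit with the scan as a fixed block (vertical axis), with a grey line of equal values. Filled points were called without the block, and all of them lie on the same side of 0 in both fits. Of all 56 members, 45 do so at 12 h against 0 h and 49 in each other comparison.

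Sult1e1 encodes the estrogen sulfotransferase, which inactivates estrogens and is normally scarce in mouse liver. Its signal was -3.24, -4.37 and -3.51 at 1.5 h, 2.30, 1.91 and 3.34 at 12 h and 0.00, 3.19 and 0.32 at 24 h, against -5.07, -4.39 and -5.53 at 0 h. All arrays at 12 and 24 h lay above all those at 0 and 1.5 h, and at 24 h the odd array, replicate 2, was the highest. The probe was well above background on 1 of 3 arrays at 0 h and on all later arrays.

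Sult1e1 was 183-fold higher at 12 h than at 0 h (log2 7.52 ± 0.75 SE, n = 3 each, limma adjusted p = 0.000236). At 24 h the log2 fold change was 6.17 ± 0.75 (limma adjusted p = 0.00149), and 5.16 (adjusted p = 0.000251) without replicate 2. Blocking on the scan gave 7.80 at 12 h (adjusted p = 0.00363) and 4.62 at 24 h (adjusted p = 0.0781, which did not pass). Within scan 2 alone, 12 h lay 6.04 above 1.5 h. Since 2 of 3 arrays at 0 h were not well above background, the folds depend on how background is treated. With normexp background correction the log2 fold change was 4.56 at 12 h (limma adjusted p = 0.00849) and 3.64 at 24 h (adjusted p = 0.0594, which did not pass). At 1.5 h the log2 fold change against 0 h was 1.29 ± 0.75 (limma adjusted p = 0.777). For 24 h against 12 h it was -1.35 (adjusted p = 0.186), and this comparison passed the threshold without replicate 2 (-2.36, adjusted p = 0.0115) and with the scan as a block (-3.18, adjusted p = 0.0130). Its promoter is printed because the probe showed the highest fold change among the members. It is the 250 bases before the RefSeq gene start in build GRCm38.p6, chr5:87591612-87591861 on the minus strand, read 5′ to 3′, and no base is in capitals because none of the motifs searched was found in it.
Sult1e1: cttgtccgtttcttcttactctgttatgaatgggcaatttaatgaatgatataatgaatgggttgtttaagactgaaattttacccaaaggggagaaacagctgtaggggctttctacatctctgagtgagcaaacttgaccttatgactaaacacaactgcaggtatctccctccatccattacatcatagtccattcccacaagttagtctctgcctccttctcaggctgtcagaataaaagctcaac

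Motifs were searched on both strands in the RefSeq windows from 250 bases before to 50 after the gene start. They were the antioxidant response element TGACNNNGC, the AP-1-like pattern TGANTCA and the STAT site TTCNNNGAA. The others were the D-box TTATGNAA, the E-box CACGTG and the palindromic HNF1 site. TGANTCA allows any middle base and is wider than the AP-1 consensus, which has C or G there. Windows were found for 47 of the 53 member genes, 57 windows in all. The pattern TGANTCA was in 12 of 57 member windows (21.05%), against 7.808% of all 32851 windows. In Sult2a8, Ugt1a6a, Ugt2b1, Ugt2b35 and Ugt2b38 the match was TGAATCA or TGATTCA, which is not the AP-1 consensus. Several matched genes are close relatives, such as Gstp1 and Gstp2, and the difference in shares was not tested. The antioxidant response element was in 3 (5.263%), against 12.39% of all windows, the STAT site in 3 (5.263%), against 8.298%, and the D-box in 4 (7.018%), against 3.385%. The E-box and the HNF1 site were in 0 member windows, against 7.150% and 0.009132% of all windows. The STAT and TGANTCA matches of Ugt1a6a overlap. A match is a run of letters, and no match says only that these letters are not in this window.

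Among the other sulfotransferases some were higher and some lower. Sult1a1, a phenol sulfotransferase, read 6.15, 5.88 and 6.25 at 12 h, against 4.80, 4.96 and 5.13 at 0 h, and was 2.19-fold higher (log2 1.13 ± 0.24, limma adjusted p = 0.00955). It read 5.58, 5.63 and 5.60 at 24 h, a log2 fold change of 0.64 against 0 h that did not pass (adjusted p = 0.146). Sult1d1, which sulfates catecholamines in mice, read 2.86, 2.51 and 2.75 at 12 h, against 0.95, 1.34 and 1.59 at 0 h, and was 2.67-fold higher (log2 1.41 ± 0.36, limma adjusted p = 0.0242). For both, no array at 12 h overlapped those at 0 h, which also held for 19168 of all 31168 kept probes. Under the scan block neither passed at 12 h, Sult1a1 at 0.86 (adjusted p = 0.201) and Sult1d1 at 1.61 (adjusted p = 0.112). Sult1d1 then read 1.09, 2.20 and 1.12 at 24 h and was lower than at 12 h (log2 -1.24 ± 0.36, limma adjusted p = 0.0475).

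Sult1c2, another SULT1 enzyme, had the lowest log2 fold changes of its family. It read -5.28, -4.32 and -5.41 at 12 h and -5.08, -4.17 and -4.82 at 24 h, against -1.48, -1.09 and -1.13 at 0 h. The 12 and 24 h arrays did not overlap those at 0 h, and 2 of 3 arrays at each of these times were well above background. The log2 fold change was -3.77 ± 0.45 at 12 h (13.6-fold lower, limma adjusted p = 0.000545) and -3.46 ± 0.45 at 24 h (adjusted p = 0.00224). At 1.5 h it read -0.77, -2.37 and -2.14, and the one array above 0 h was that of scan 1. The block turned the 12 h value into -2.09 (adjusted p = 0.0518) and the 24 h value into -1.63 (adjusted p = 0.348), and within scan 2 alone 12 h lay -2.55 from 1.5 h. With normexp background correction the values were -0.96 at 12 h and -2.15 at 24 h (limma adjusted p = 0.639 and 0.147).

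Sult2a8, a bile acid sulfotransferase of mouse liver, read 4.21, 3.27 and 4.46 at 12 h and 3.39, 2.64 and 1.68 at 24 h, against 5.89, 5.10 and 5.91 at 0 h. Each later group lay below 0 h without overlap. Its log2 fold change was -1.65 ± 0.45 at 12 h (limma adjusted p = 0.0320) and -3.06 ± 0.45 at 24 h (8.36-fold lower, adjusted p = 0.00430), and its 1.5 h arrays read 5.43, 5.27 and 5.40. Under the scan block the values were -1.80 and -3.72 (adjusted p = 0.282 and 0.244). Sult1b1, which acts on thyroid hormones, read -0.73, -1.44 and -0.88 at 12 h and -0.55, -1.33 and -1.41 at 24 h, against -0.09, 0.14 and 0.31 at 0 h, with log2 fold changes of -1.13 ± 0.30 and -1.21 ± 0.30 (limma adjusted p = 0.0304 and 0.0440). The arrays at 12 and 24 h overlapped each other and lay below all those at 0 h. Blocked on scan, its values were -1.03 and -1.13 (adjusted p = 0.312 and 0.593).

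Sult5a1 was lower at 24 h (0.13, -0.19 and 0.13) than at 12 h (1.45, 1.10 and 1.43) and 0 h (1.49, 1.73 and 1.30), with log2 fold changes of -1.31 ± 0.27 against 12 h and -1.48 ± 0.27 against 0 h (limma adjusted p = 0.0197 and 0.0131). The 24 h arrays lay below all others, and the 12 h level was -0.18 from 0 h, which did not pass. Blocked on scan, the difference from 12 h was -1.30 (adjusted p = 0.0431) and that from 0 h was -1.05 (adjusted p = 0.484). Sult1c1 was not well above background on any array at 24 h or 0 h, so its lower call at 24 h against 0 h carries no fold, and the call did not pass under the scan block (adjusted p = 0.0702). It read -6.88, -8.69 and -6.98 at 24 h, against -4.74, -4.83 and -5.27 at 12 h, where 2 arrays were well above background. By the bound it was at least 1.86-fold lower at 24 h than at 12 h (limma adjusted p = 0.0125). The probe passed the filter only through 2 arrays at 1.5 h and 2 at 12 h, so this call is no independent support. Its highest readings were on the arrays of scan 2. There 82.0 to 85.4% of spots were well above background, against 62.8 to 72.4% on the other arrays. Sult2a2, Sult3a2 and Sult4a1 did not pass in any comparison over the 12 arrays. Sult2a2 was well above background on 0 arrays at 0 h and at 24 h and is given no fold, and Sult3a2 and Sult4a1 had log2 fold changes at 12 h of 0.36 and 0.73.

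**Figure D3:**
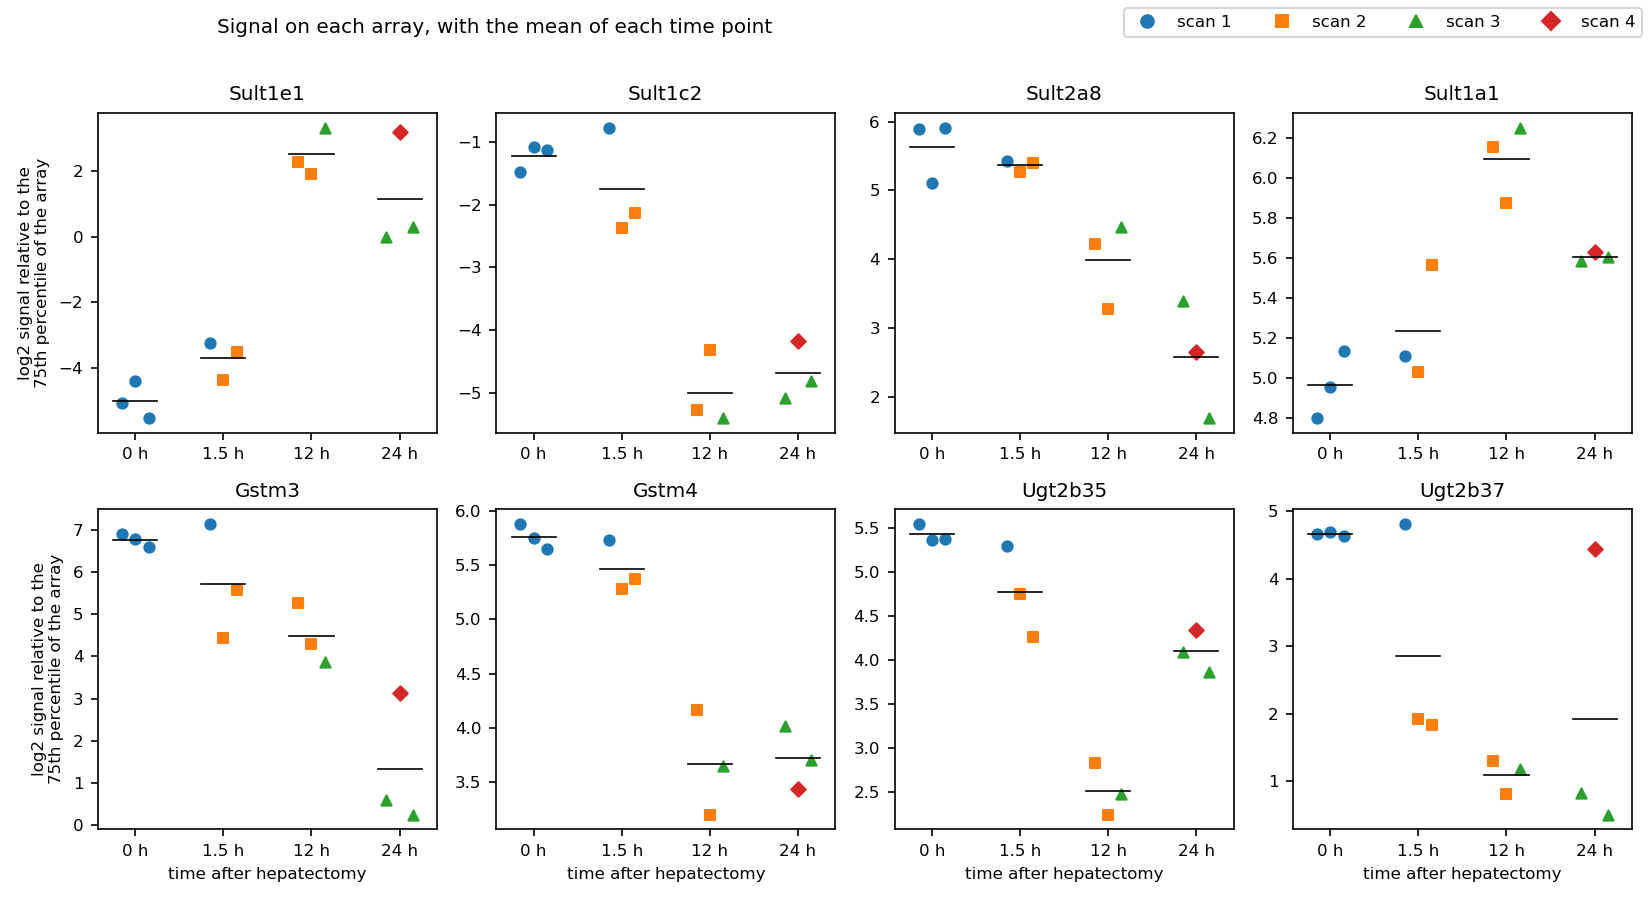
Log2 signal relative to the 75th percentile of the array (vertical axis, own scale in each panel) on each of 12 arrays at 0, 1.5, 12 and 24 h for 8 probes, with the mean of each time point as a line and the scan as marker shape and colour. Sult1e1 and Sult1a1 lie higher at 12 h than at 0 h and the other 6 probes lower, and in the Ugt2b37 panel 1.5 h replicate 1 (scan 1) and 24 h replicate 2 (scan 4) lie at the level of 0 h. For Gstm4 the probe with the smaller p at 12 h is shown.

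Within the UGT family, 11 of 20 probes were called lower and 1 higher at 12 h, and 11 lower and 0 higher at 24 h. Of all kept probes 8.26% were called lower and 7.06% higher at 12 h, and 2.62% and 2.84% at 24 h. The Ugt1a locus is unusual in that many alternative starts are spliced to the same downstream exons, so its transcripts share much of their sequence. UGT1A1 is the enzyme that conjugates bilirubin, and UGT1A6 acts on simple phenols. Of the 8 Ugt1a probes, those named Ugt1a1, Ugt1a10, Ugt1a2, Ugt1a5, Ugt1a6a, Ugt1a7c and Ugt1a9 were all called lower at both times. The log2 fold changes were -2.69 to -2.03 at 12 h, leaving out Ugt1a10, for which a bound is given below, and -2.93 to -2.17 at 24 h. Without 24 h replicate 2 all 7 passed, with fitted 24 h values of -3.55 to -2.27. Apart from Ugt1a10, however, these probes were well above background on 1 of 3 arrays at 24 h. Replicate 2 read highest of the 24 h arrays for each of them. Without it the fitted values rest on signals near background and are not given as folds. Whether these 7 probes tell the transcripts apart is not known from the files, so they are not independent readings. Ugt1a1, Ugt1a6a, Ugt1a7c and Ugt1a10 passed the filter only with their 0 and 1.5 h arrays, where they read highest. Their lower calls are therefore no independent support.

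The probe named Ugt1a1 read -6.11, -5.36 and -6.35 at 12 h and -6.66, -5.01 and -6.89 at 24 h, against -2.72, -3.40 and -3.64 at 0 h. Its log2 fold change was -2.69 ± 0.54 at 12 h (limma adjusted p = 0.00794) and -2.93 ± 0.54 at 24 h (adjusted p = 0.0128), and no later array at these times overlapped 0 h. The probe named Ugt1a2 read -5.34, -5.43 and -5.70 at 12 h and -7.02, -5.13 and -6.99 at 24 h, against -3.10, -3.64 and -3.64 at 0 h, with -2.92 ± 0.49 at 24 h (limma adjusted p = 0.00835). At 24 h replicate 2 was the highest array for both. The probe named Ugt1a7c read -7.04, -5.30 and -6.63 at 24 h, against -3.02, -3.47 and -3.83 at 0 h (log2 -2.89 ± 0.51, limma adjusted p = 0.0113).

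The probe named Ugt1a10 was well above background on 0 of 3 arrays at 12 h. It read -6.22, -6.06 and -6.03 there, against -2.67, -3.45 and -3.63 at 0 h, and was at least 5.44-fold lower (limma adjusted p = 0.00425). With normexp background correction it did not pass (limma adjusted p = 0.968). The bound sets each dim array at no less than its lowest signal called well above background. The other 6 of these probes were above background on 1 or 2 of 3 arrays at 12 h and 1 of 3 at 24 h, so their folds rest partly on signals near background. At 1.5 h the same 7 probes had log2 fold changes between -1.32 and -0.61 against 0 h, and Ugt1a10 had the smallest p of all members there (read -4.11, -4.18 and -5.36, log2 -1.30 ± 0.51, limma adjusted p = 0.723).

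Under the scan block none of the 7 probes passed at 12 h or 24 h. The log2 values were -2.07 to -1.49 at 12 h without Ugt1a10, and -2.97 to -1.54 at 24 h for all 7. Within scan 2 alone, 12 h lay between -1.48 and -0.83 from 1.5 h for the 6 probes other than Ugt1a10. The probe named Ugt1a6b did not pass over the 12 arrays. It read 5.43, 5.03 and 5.12 at 12 h and 5.12, 6.10 and 5.11 at 24 h, against 5.54, 5.69 and 5.80 at 0 h, with log2 fold changes of -0.48 and -0.23 (limma adjusted p = 0.270 and 0.683). At 24 h its highest array was replicate 2, and at 12 h all arrays lay below 0 h.

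**Figure D4:**
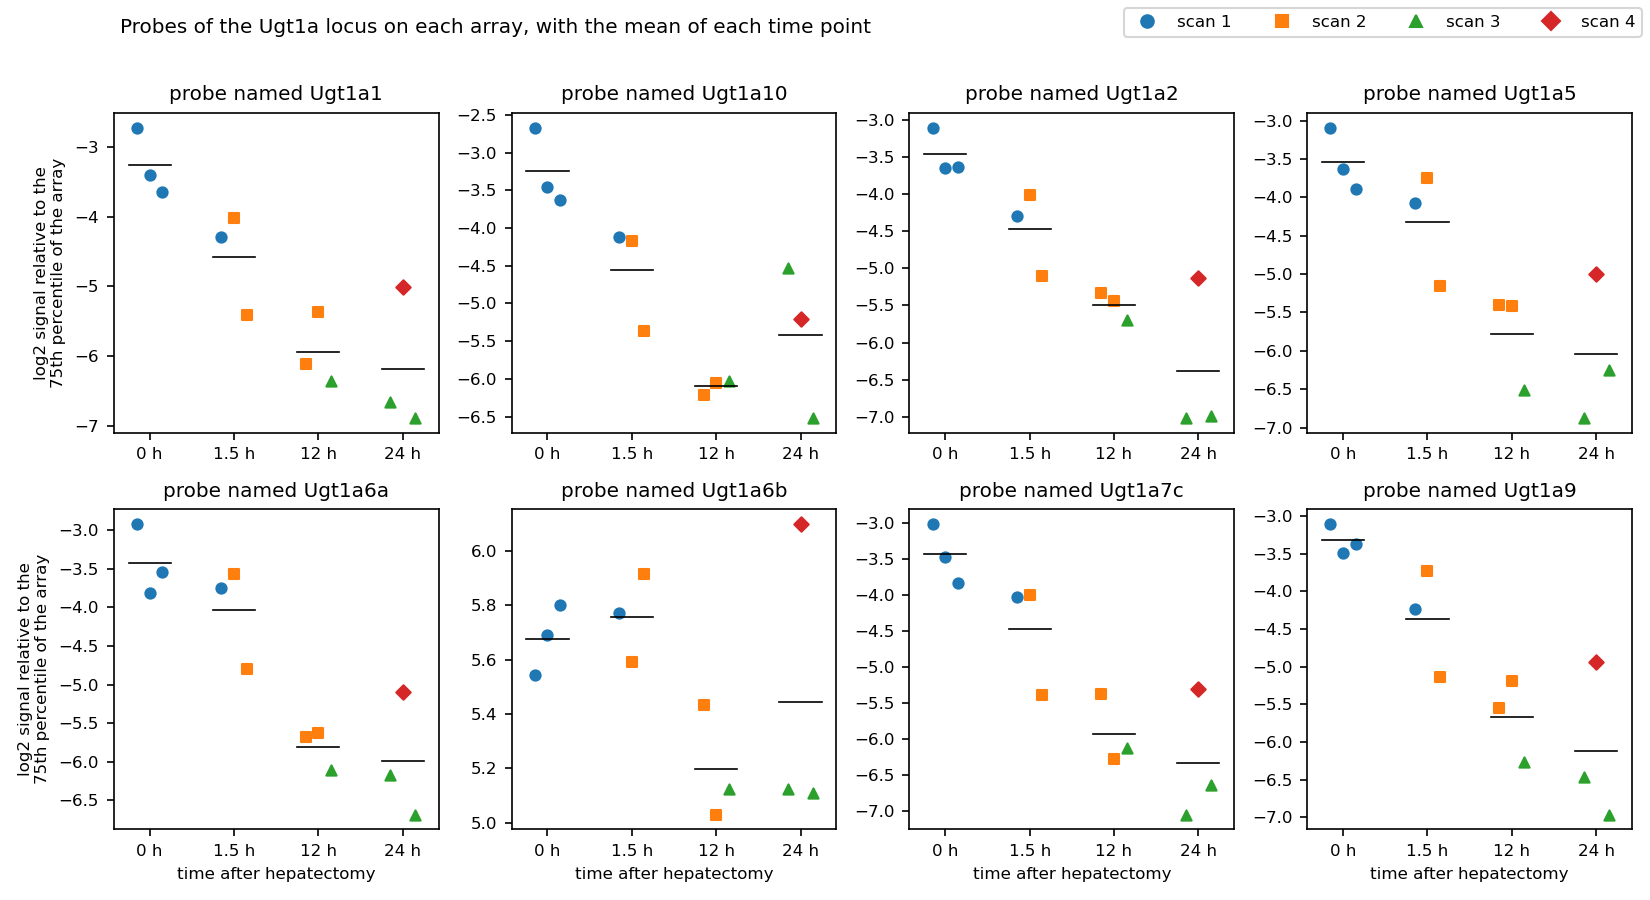
Log2 signal relative to the 75th percentile of the array (vertical axis, own scale in each panel) for the 8 probes named after Ugt1a transcripts on each of 12 arrays at 0, 1.5, 12 and 24 h, with the mean of each time point as a line and the scan as marker shape and colour. In 7 panels the 12 and 24 h arrays lie below all 0 h arrays, and in the Ugt1a6b panel the 24 h arrays spread around the 0 h level.

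Ugt2b enzymes conjugate steroids and bile acids, and the Ugt2b genes of mice are close relatives whose probes may pick up each other's transcripts. Ugt2b35 read 2.83, 2.25 and 2.48 at 12 h and 4.09, 4.35 and 3.86 at 24 h, against 5.55, 5.36 and 5.37 at 0 h. The groups at 12, 24 and 0 h did not overlap, and 24 h lay between the other two. At 12 h it was 7.50-fold lower (log2 -2.91 ± 0.30, limma adjusted p = 0.000254), also with the scan as a block (-2.09, adjusted p = 0.0296). At 24 h it was -1.33 ± 0.30 from 0 h (limma adjusted p = 0.0296) and 2.99-fold higher than at 12 h (log2 1.58 ± 0.30, adjusted p = 0.0140), the one member called higher in that comparison. Blocked on scan, 24 h lay 1.50 above 12 h (adjusted p = 0.0271) and -0.59 from 0 h (adjusted p = 0.721). Its promoter is printed because its lower level at 12 h passed with and without the block. It is the 250 bases before the RefSeq gene start in GRCm38.p6, chr5:87000610-87000859 on the plus strand. The capitals mark a match to the pattern TGANTCA, first base at -246 from the start. Its middle base is T, so it is not the AP-1 consensus.
Ugt2b35: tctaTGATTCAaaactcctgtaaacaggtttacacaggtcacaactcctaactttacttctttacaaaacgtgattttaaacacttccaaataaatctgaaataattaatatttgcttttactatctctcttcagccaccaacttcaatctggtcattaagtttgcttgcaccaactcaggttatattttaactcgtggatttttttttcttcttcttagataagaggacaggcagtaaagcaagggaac

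Ugt2b37 had the lowest log2 fold change of the family at 12 h, and its arrays followed the scan. It read 4.81, 1.92 and 1.84 at 1.5 h, 1.30, 0.81 and 1.18 at 12 h and 0.82, 4.45 and 0.51 at 24 h, against 4.67, 4.70 and 4.63 at 0 h. The 4 arrays of scan 1 and the array of scan 4 read 4.45 to 4.81, and the 7 arrays of scans 2 and 3 read 0.51 to 1.92. At 12 h it was -3.57 ± 0.99 (limma adjusted p = 0.0345), and with the scan as a block -0.68 (adjusted p = 0.267). At 24 h it was -2.74 (limma adjusted p = 0.140), and -4.00 without replicate 2 (adjusted p = 0.00646). Time and scan cannot be told apart for most of this difference.

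Ugt2b36 and Ugt2b5 were also called lower at 12 h, with log2 fold changes of -1.17 ± 0.32 and -1.07 ± 0.26 (limma adjusted p = 0.0320 and 0.0204). At 24 h Ugt2b36 (-1.28), Ugt2b1 (-1.57) and Ugt2a3 (-1.78) passed (limma adjusted p = 0.0431, 0.0469 and 0.00880). None of these calls against 0 h passed under the scan block, where the adjusted p was 0.279 for both genes at 12 h and 0.458, 0.113 and 0.336 at 24 h. Under the block Ugt2b1 and Ugt2b38 were lower at 24 h than at 12 h (-1.54 and -2.66, limma adjusted p = 0.0175 and 0.0334). Without the block these differences were -0.93 and -1.46 and did not pass. Ugt2b38 read -1.65, 1.59 and -2.55 at 24 h, against 0.57, -0.02 and 0.39 at 0 h, so that replicate 2 lay above and the other 2 arrays below 0 h. Its log2 fold change was -1.18 over all arrays (limma adjusted p = 0.448) and -2.42 without replicate 2 (adjusted p = 0.00493). Ugt2b34, Ugt2a1 and Ugt2a2 did not pass over the 12 arrays, with 12 h values of -1.49, 0.75 and 0.56.

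Ugt3a1 belongs to a small UGT branch that, in humans, uses other UDP-sugars than UDP-glucuronic acid. It read 2.89, 2.41 and 3.48 at 12 h, against 1.71, 1.72 and 2.04 at 0 h, without overlap, and was the one UGT called higher (2.14-fold, log2 1.10 ± 0.33, limma adjusted p = 0.0469). The scan block gave 0.77 (adjusted p = 0.310). Ugt3a2 was at -0.07 at 12 h and -0.14 at 24 h, where 2 arrays measured it because the spot of replicate 2 was dropped as an outlier.

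Among the GSTs 4 of 25 probes were called lower at 12 h and 10 at 24 h, and 0 higher. Of all kept probes 8.26% were called lower at 12 h and 2.62% at 24 h. All of these lower calls were of alpha and mu class probes. At 24 h 5 of 6 alpha probes and 5 of 8 mu probes were called lower, and 0 of the 11 kappa, omega, pi, theta and zeta probes. With 2.62% of all kept probes called lower, 0 of 11 does not set those classes apart from other probes. Without 24 h replicate 2, 10 GST probes were called lower at 12 h and 14 at 24 h, where 16.6% and 6.67% of all kept probes were. Those outside the alpha and mu classes were then Gstk1, Gsto1 and Gstt2 at 12 h (limma adjusted p = 0.0405, 0.0168 and 0.0305) and Gsto1, Gstp3 and Gstt1 at 24 h (adjusted p = 0.0288, 0.0346 and 0.0435). No test of a difference between classes was run. GST genes of one class are close relatives, so probes of Gsta1 and Gsta2, of Gstp1 and Gstp2 and of the mu genes may pick up each other's transcripts.

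Gsta3 encodes the alpha class enzyme that conjugates the epoxide of aflatoxin in mice. Its probe 1 read 3.07, 2.10 and 2.38 at 12 h and 2.26, 0.09 and 1.30 at 24 h, against 4.01, 4.43 and 4.28 at 0 h. All later arrays at these times were lower than every 0 h array, and at 24 h replicate 2 was the lowest. The log2 fold change was -1.72 ± 0.47 at 12 h (limma adjusted p = 0.0318) and -3.02 ± 0.47 at 24 h (8.12-fold lower, adjusted p = 0.00565), and its probe 2 gave -1.82 and -3.09. Without replicate 2 probe 1 was at -2.46 at 24 h (adjusted p = 0.00207). The scan block gave -1.80 and -2.40 (adjusted p = 0.134 and 0.272). Within scan 2 alone, 12 h lay -1.99 from 1.5 h. Its promoter is printed as the one of a called member that holds the antioxidant response element, a binding site of NRF2 known from GST genes. It is the 250 bases before the RefSeq gene start in GRCm38.p6, chr1:21240335-21240584 on the plus strand, and the capitals mark the letters TGACNNNGC, first base at -121 from the start.
Gsta3: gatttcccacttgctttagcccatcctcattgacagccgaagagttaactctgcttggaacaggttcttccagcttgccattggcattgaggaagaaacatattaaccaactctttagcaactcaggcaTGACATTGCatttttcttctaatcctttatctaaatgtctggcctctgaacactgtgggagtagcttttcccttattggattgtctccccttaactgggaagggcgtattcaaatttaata

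Gsta2 read 3.84, 3.04 and 2.47 at 12 h and -0.48, 3.03 and 0.50 at 24 h, against 4.64, 5.05 and 4.37 at 0 h. At 24 h replicate 2 lay far above the other 2 arrays and still below 0 h. The 24 h log2 fold change was -3.67 ± 0.76 (12.7-fold lower, limma adjusted p = 0.0213), -4.68 without replicate 2 (adjusted p = 0.000707) and -2.36 with the scan as a block (adjusted p = 0.286). Gsta4, which conjugates the lipid peroxidation product 4-hydroxynonenal, read 1.99, 3.94 and 3.26 at 24 h on the probe with the smaller p, against 5.31, 4.62 and 4.61 at 12 h and 5.54, 5.58 and 5.69 at 0 h. It was lower at 24 h than at 12 h (log2 -1.79 ± 0.42, limma adjusted p = 0.0281) and than at 0 h (-2.54 ± 0.42, adjusted p = 0.00839), and its other probe was at -1.18 (adjusted p = 0.0550) and -1.62 (adjusted p = 0.0304). Under the scan block the first probe passed against 12 h (-1.99, adjusted p = 0.0427) and not against 0 h (-2.68, adjusted p = 0.233). Gsta1 did not pass over the 12 arrays (-1.02 at 12 h, -2.09 at 24 h), and without replicate 2 it passed at 24 h (-3.06, adjusted p = 0.0136).

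Gstm3 had the lowest log2 fold change of all members. It read 7.15, 4.44 and 5.57 at 1.5 h, 5.26, 4.30 and 3.87 at 12 h and 0.59, 3.12 and 0.25 at 24 h, against 6.91, 6.80 and 6.59 at 0 h. The 24 h arrays lay below every other array, with replicate 2 the highest of them. At 24 h it was 43.6-fold lower than at 0 h (log2 -5.45 ± 0.79, limma adjusted p = 0.00417) and 8.91-fold lower than at 12 h (log2 -3.16 ± 0.79, adjusted p = 0.0337). Without replicate 2 it was 81.4-fold lower than at 0 h (adjusted p = 0.000458) and 16.7-fold lower than at 12 h (adjusted p = 0.00450). Under the scan block the log2 values were -3.29 (adjusted p = 0.170) and -3.45 (adjusted p = 0.0112). At 12 h against 0 h it was at -2.29 (adjusted p = 0.0754, and 0.0104 without 24 h replicate 2), and with the scan as a block at 0.16.

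Gstm4 was lower at 12 h by about as much as at 24 h. The probe with the smaller p read 4.16, 3.20 and 3.65 at 12 h and 4.02, 3.43 and 3.70 at 24 h, against 5.88, 5.75 and 5.65 at 0 h, with no overlap with 0 h. Its log2 fold changes were -2.09 ± 0.29 and -2.04 ± 0.29 (4.26-fold and 4.12-fold lower, limma adjusted p = 0.00125 and 0.00376), and those of the other probe -2.19 and -2.10. The scan block put the first probe at -1.68 (adjusted p = 0.0834) and -1.46 (adjusted p = 0.385), and within scan 2 12 h lay -1.65 from 1.5 h.

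Gstm1 and Gstm6 passed at 24 h and not at 12 h. Gstm6 read 2.21, 2.22 and 2.39 at 24 h, against 4.18, 4.23 and 4.05 at 0 h (log2 -1.88 ± 0.23, limma adjusted p = 0.00165), and was also lower than at 12 h (-1.30 ± 0.23, adjusted p = 0.0114). Gstm1 was at -1.22 ± 0.28 against 0 h (limma adjusted p = 0.0319) and -1.15 ± 0.28 against 12 h (adjusted p = 0.0304). Under the scan block Gstm6 passed against 12 h (-1.14, adjusted p = 0.0409) and not against 0 h (-1.48, adjusted p = 0.238), and Gstm1 passed against neither (-0.68, adjusted p = 0.108, and -1.20, adjusted p = 0.265). Gstt3, of the theta class, read 5.14, 4.70 and 5.27 at 12 h, against 3.96, 3.71 and 4.27 at 0 h, and 3.10 and 3.95 on the 2 arrays of 24 h that measured it. The 12 h arrays lay above those at 24 and 0 h without overlap, and overlapped those at 1.5 h (4.29, 4.20 and 4.83). The 24 h level was lower than at 12 h (log2 -1.51 ± 0.36, limma adjusted p = 0.0316), while the 12 h level did not pass against 0 h (log2 1.06, adjusted p = 0.0528, and 0.0134 without 24 h replicate 2).

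The other GST probes did not pass in any comparison over the 12 arrays. Gstp1 and Gstp2, the pi class genes that are strongly expressed in male mouse liver, were at 0.17 and 0.21 at 12 h and -0.79 and -0.81 at 24 h. At 24 h Gstp1 read 8.55, 6.68 and 8.50 and Gstp2 8.64, 6.53 and 8.54, with replicate 2 the lowest for both. Gstk1 of mitochondria and peroxisomes, Gstz1 of tyrosine breakdown and Gstm5 had 24 h values of 0.06, 0.48 and 0.41. Gsto1, Gstt1 and Gstt2 had 12 h values of -0.60, -0.41 and -0.52.

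Genes that feed, regulate or follow conjugation were read from 5 lists, 1 probe per gene, in the same fit. The list counts against 0 h stand beside 7.06% of all kept probes called higher and 8.26% lower at 12 h. At 24 h these shares were 2.84% and 2.62%. No list was tested as a set. Of 18 measured genes that supply sugar, sulfate, methyl and glutathione donors, 1 was called higher and 5 lower at 12 h, and 1 and 4 at 24 h, with medians of -0.42 and 0.06. Ugp2 and Ugdh, which make UDP-glucose and UDP-glucuronic acid, were at -2.67 (limma adjusted p = 0.00139) and -1.76 (adjusted p = 0.0326) at 12 h. Gclc, the catalytic subunit of the rate-limiting enzyme of glutathione synthesis, was at -2.40 at 12 h and -1.77 at 24 h (adjusted p = 0.00137 and 0.0154). Papss2, a PAPS synthase, was at -1.22 at 12 h and -1.79 at 24 h (adjusted p = 0.0281 and 0.0116).

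Of 15 other conjugating enzymes, 2 were called higher and 4 lower at 12 h, and 1 and 3 at 24 h, with medians of -0.35 and -0.64. Nnmt, the nicotinamide N-methyltransferase, was 14.4-fold higher at 12 h (limma adjusted p = 0.000133), and Inmt, an indolethylamine N-methyltransferase, was 19.5-fold lower at 24 h (adjusted p = 0.000185). Hnmt and Tpmt, which methylate histamine and thiopurines, were at -2.01 at 24 h (adjusted p = 0.0300) and at -1.34 at 12 h (adjusted p = 0.00498).

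Of 15 regulators of these genes, 0 were called higher and 4 lower at 12 h, and 0 in either direction at 24 h, with medians of -0.56 and 0.05. The 4 were Ppara (-1.69), Nr1i2, the receptor PXR (-1.43), Nr1i3, the receptor CAR (-1.38) and Stat5b (-1.17), with limma adjusted p = 0.0148, 0.00754, 0.0141 and 0.0111. Of the 15, 4 were called higher at 24 h than at 12 h, Nr1i3 (2.24), Ppara (2.00), Ahr (1.51) and Nr1h3 (0.97), with adjusted p = 0.00415, 0.0148, 0.0233 and 0.0346. In the same comparison 1 member probe was called higher and 8 lower, where 6.26% and 6.78% of all kept probes were called. A link between these regulators and the members was not tested.

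Of 12 NRF2 targets other than GSTs, 1 was called higher and 5 lower at 12 h, and 1 and 4 at 24 h, with medians of -1.10 and -0.41. Hmox1, the heme oxygenase, was at 1.54 at 12 h and 2.34 at 24 h (limma adjusted p = 0.0279 and 0.0100), while Osgin1 was at -2.25 and Aox1 at -1.61 at 12 h (adjusted p = 0.00194 and 0.00213). Gclc, Gclm and Slc7a11 are on this list and the donor list, and Ephx1 and Abcc4 are on this list and the next. The last list held genes that reverse or export conjugates, and also Slco uptake transporters and the epoxide hydrolases Ephx1 and Ephx2. Its medians were -0.93 at 12 h and -0.45 at 24 h. Of its 12 measured genes, 0 were called higher and 6 lower at 12 h, and 0 and 2 at 24 h. They include Slco1a1, an uptake transporter of organic anions (-2.10 at 24 h, adjusted p = 0.00258), Arsa, a lysosomal sulfatase (-1.50 at 12 h, adjusted p = 0.00217), Slco1a4 (-1.33, adjusted p = 0.0428) and Abcc2, the canalicular exporter of conjugates (-1.26, adjusted p = 0.0207). The medians of all probes were 0.42 at 12 h and -0.15 at 24 h. Of all kept probes 7.06% were called higher and 8.26% lower at 12 h, and 2.84% and 2.62% at 24 h. With the scan as a block, 0 of these lists kept more than 1 lower call at 12 h against 0 h, and at 24 h against 0 h the 5 lists together had 0 higher calls and 1 lower call, among the other conjugating enzymes. At 24 h against 12 h, 2 regulators were called higher under the block and 4 without it.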

How the data were processed

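Total RNA from mouse liver was hybridised with the Cy3 dye to 1-colour Agilent arrays, 12 arrays for 4 time points with 3 mice each. Per the file headers, the authors extracted spot intensity with Agilent Feature Extraction 10.5.1.1, whose processed signal is background-corrected. The deposited series table holds the authors' log2 values for 20271 probes, used as an alternative. They correlated at 0.993 to 1.00 with the log2 processed signals.

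Control spots and outlier spots were left out, spots of a probe averaged, and log2 of the signal taken relative to the 75th percentile of each array. Probes well above background on at least 3 arrays were kept. Comparisons used limma 3.58.1 in R 4.3.3 (lmFit and eBayes, 1 mean per time point), with Benjamini-Hochberg adjustment over all kept probes and a threshold of 0.05. The scripts were tested on simulated data. Nothing in the labels says more of the replicates than that they are 3 mice, and the number of arrays limits the precision.

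Where a group had no array well above background, a bound replaced the fold. Scan groups came from the headers and are not called slides. Every member may be named. Values on each array were given, per family, for up to 3 highest and 3 lowest called genes at 12 h and at 24 h against 0 h, up to 3 called between 24 h and 12 h, the smallest p at 1.5 h, and Sult1e1. From each supporting list up to 4 called genes with the largest change were named. Gstm1, Gstm6, Gstp1, Gstp2, Ugt1a6b and Ugt2b38 got array values, and Ahr and Nr1h3 were named, after their values were seen. The members, the 5 supporting lists and the 11 marker lists were chosen with earlier results of these data known. Gene names came from RefSeq accessions, and promoters from RefSeq on GRCm38.p6.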

Additional observations from a re-analysis of the deposited data

How the results depend on the processing

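Member calls over 56 probes were recomputed under 24 other settings. The shares of all kept probes are given above only without 24 h replicate 2 and with the scan as a fixed block. These shares can move far, from 7.06% to 32.6% called higher at 12 h without 24 h replicate 2. The counts below show how calls depend on the processing and are not results about the transferases. Background correction by normexp with an offset of 50 gave 1 higher and 7 lower at 12 h against 0 h, 0 and 8 at 24 h, and 0 lower between 24 h and 12 h, and it turned the Sult1e1 difference at 1.5 h to -0.0051 and the Sult1e1 and Sult1c2 differences at 12 h to 4.56 and -0.96. Keeping probes above background on all 12 arrays gave 10 lower at 12 h and 0 higher at 24 h, with fewer probes tested. Fitting only the arrays compared gave 9 and 28 at 12 h, 0 and 1 at 24 h, and 0 and 0 between 24 h and 12 h. The scan as a fixed block gave 1 and 1 at 12 h and 0 and 0 at 24 h, and as a random block (correlation 0.853) 2 and 5 at 12 h, 2 lower at 24 h and 14 lower between 24 h and 12 h. Quantile normalization gave 13 lower between 24 h and 12 h, robust trended variances 13, and the authors' values 14, with 0 higher at 24 h. Without 24 h replicate 2 and 1.5 h replicate 1, a choice made after seeing the data, 4 and 6 were called at 1.5 h, 10 and 28 at 12 h, and 19 lower between 24 h and 12 h. Leaving out 1 array at a time gave 0 calls at 1.5 h, 1 to 8 higher and 8 to 28 lower at 12 h, 1 higher and 11 to 33 lower at 24 h, and 1 to 2 higher and 0 to 14 lower between 24 h and 12 h. The extremes came without 0 h replicate 1 (8 and 11 lower at 12 h and 24 h), 12 h replicate 1 (0 lower between 24 h and 12 h) and 24 h replicate 2, and counts also moved by over 1.5 times without 0 h replicates 2 or 3, 12 h replicates 2 or 3, or 24 h replicate 3. The cause of these shifts was not tested. With the replicate number as a block, 4 were higher and 16 lower at 12 h, 1 and 21 at 24 h, and 1 and 4 between them. Of 18 same-numbered pairs 2 correlated over 0.1 (r from -0.42 to 0.41), and 3 of 12 arrays correlated best with their own number, so the numbers did not pair the mice. Signals near background limit the Ugt1a, Sult1c1, Sult1c2 and Sult1e1 folds.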
